A study of Mus musculus with 24 samples.

Results

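Collagens are the proteins that build most of the extracellular matrix, and their genes were followed here through the reprogramming of mouse neural precursor cells (NPCs) to induced pluripotent stem cells (iPSCs). The members are the protein-coding genes of the deposited expression table whose GENCODE vM21 symbol has the form Col, a number, a, a number. This rule found 44 of the 37315 genes in the table, spread over 15 chromosomes, and used no measured value. They were grouped by the assembly their chains form into 11 fibrillar, 8 basement membrane and 25 other collagens. In 36 of the 44 the mean of some population reached 100 normalized counts.

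The study asked what interferon γ (IFNγ) does to reprogramming, and sequenced total RNA from 12 sorted or cultured populations with 2 libraries each. All cells descend from PaX, a single female embryonic stem cell (ESC) line from a cross of 129S1/SvImJ and CAST/EiJ mice, so ESCs and NPCs carry the reporters and the inducible cassette too. It holds a green fluorescent reporter on the Mus musculus X chromosome (X-GFP) with a truncated Tsix gene on the same X, a red fluorescent reporter driven by a Nanog promoter, and a doxycycline-inducible cassette of c-Myc, Klf4, Oct4 and Sox2. ESCs were grown on gelatin in serum with leukaemia inhibitory factor, and NPCs were derived from them and sorted as negative for the surface antigen SSEA1 and for both reporters. The 10 reprogramming populations all received doxycycline and ascorbic acid on irradiated male fibroblast feeders. Of these, 5 received 10 ng/ml IFNγ from day 0 and the other 5 served as controls. IFNγ was given until day 5, or until collection at day 2 for the day 2 cells. Day 2 cells were sorted as free of the dye that marked the feeders, day 5 cells as SSEA1 positive, and day 7 cells as SSEA1 positive with negative, medium or high X-GFP. The study calls its replicates independent, but neither it nor the labels say whether the libraries of a population came from separate cultures, so the p-values measure the spread between these libraries, which may be technical.

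Every collagen chain holds at least 1 triple-helical stretch in which glycine returns at every 3rd residue, because only glycine fits at the centre of the helix. Fibrillar collagens carry a long helix that in most of them is nearly unbroken, and pack into the fibrils of connective tissue. Type IV collagens carry a helix with many breaks, form the network of basement membranes together with types XV and XVIII, and are among the first matrix proteins of the mammalian embryo. The other collagens decorate fibrils, form beaded filaments such as type VI, or span the plasma membrane.

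The glycine rhythm can be read in the coding sequence. The first 6 triplets of the longest uninterrupted run are shown for 4 chains on which the results turn, 1 fibrillar chain, both main types of basement membrane chain and 1 type VI chain, with each glycine codon in capitals. They come from GENCODE vM21 transcripts on GRCm38 and are counted in bases from the first base of the start codon. The Col3a1 stretch covers coding bases 490 to 543 of a gene on chromosome 1, the Col4a1 stretch bases 127 to 180 of a gene on chromosome 8, and the Col18a1 stretch bases 2857 to 2910 and the Col6a1 stretch bases 766 to 819 of genes on chromosome 10.
Col3a1: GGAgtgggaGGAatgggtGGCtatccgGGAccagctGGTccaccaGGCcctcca
Col4a1: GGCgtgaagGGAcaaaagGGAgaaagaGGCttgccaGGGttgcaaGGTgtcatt
Col18a1: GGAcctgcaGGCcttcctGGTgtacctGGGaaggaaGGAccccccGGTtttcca
Col6a1: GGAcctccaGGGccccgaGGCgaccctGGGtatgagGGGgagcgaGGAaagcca
The longest run of triplets without a break separated the fibrillar class from the rest. It was 216 to 344 triplets long in the 11 fibrillar chains (median 338), against 30 to 66 in the 8 basement membrane chains (median 41) and 23 to 113 in the 25 others (median 52).

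Between 24746109 and 37056508 reads fell on genes in each library. Pluripotency markers summed to 142356 and 138457 normalized counts in the ESC libraries and neural precursor markers to 45824 and 41732 in the NPC libraries. Y-linked genes, which the female line lacks and the male feeders have, summed to 253 and 218 in the day 2 control libraries and 125 and 223 in the day 2 IFNγ libraries, against at most 1.94 in ESCs and NPCs and at most 12.5 at day 5 and day 7. Y-linked transcripts were thus present in the day 2 libraries, and least in IFNγ replicate 1. In these bulk samples, fewer cells of a type and less RNA per cell cannot be told apart.

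Across the populations, the levels of the 3 classes followed different courses. Levels are compared between genes as normalized counts per kilobase of merged exons, summed over the members of a class. The fibrillar sum was 4019 and 5754 in the NPC libraries and 9319 and 7083 in the day 2 control libraries, where fibrillar members made up 61.6% of all collagen signal. It was 624 and 647 at day 5, 573 and 524 in day 7 X-GFP negative cells, 297 and 286 in day 7 X-GFP high cells and 243 and 251 in ESCs. The day 5 sum lay -3.68 ± 0.28 (SD, n = 2 against 2) log2 units from that of day 2. The basement membrane sum covered a narrower range, with 3335 and 4248 in NPCs, 3392 and 2664 at day 2, 1211 and 1345 at day 5, 2197 and 2065 in day 7 X-GFP negative cells and 1461 and 1418 in ESCs. In ESCs this class made up 72.9% of the collagen signal, and Col18a1 alone, the precursor of the angiogenesis inhibitor endostatin, made up 55.5%. The remaining collagens summed to 1228 and 1782 in NPCs, 2367 and 1790.0 at day 2 and 296 and 279 in ESCs.

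**Figure D1:**
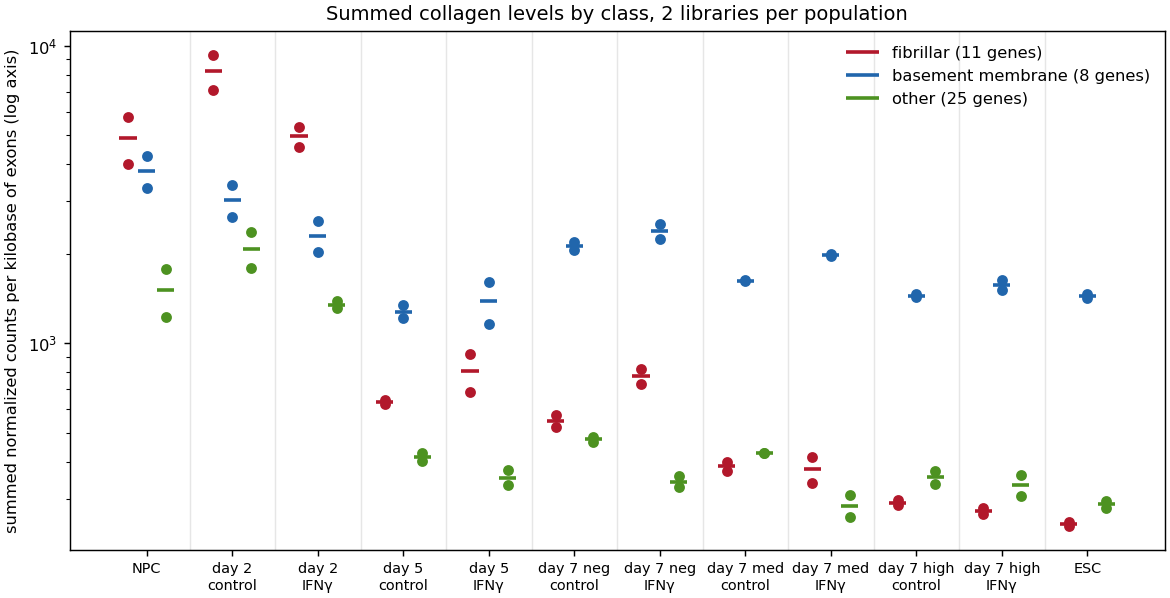
Summed level of the fibrillar, basement membrane and other collagens (normalized counts per kilobase of merged exons, log axis) in each of the 12 populations, with 1 point per library and a bar at the mean of the 2 libraries. The fibrillar sum is highest in the day 2 control libraries and the basement membrane sum is the largest of the 3 classes in ESCs.

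From NPCs to day 2 control cells, 19 of the 42 members tested rose and 8 fell, where 31.6% of all genes tested rose and 37.6% fell. The fibril-forming pair of type I and the type V chain Col5a2, which joins type I in mixed fibrils, rose. Col1a1 stood at 621 and 698 normalized counts in the NPC libraries and 12559 and 9244 at day 2, a log2 fold change of 4.03 ± 0.15 (SE, adjusted p = 3.53e-05). Its partner chain Col1a2 stood at 2858 and 3806 and then 18284 and 12936, a log2 fold change of 2.22 ± 0.20 (SE, adjusted p = 0.000302). Both chains of type I were higher in each day 2 library than in each NPC library. Col5a2 had a log2 fold change of 2.89 ± 0.15 (SE, adjusted p = 6.29e-05). Col3a1, which makes the homotrimeric type III fibril, did not pass the test: its libraries held 20145 and 30501 counts in NPCs and 24921 and 15315 at day 2, and the groups overlapped, with a log2 fold change of -0.34 ± 0.28 (SE, adjusted p = 0.318). Of the 7 basement membrane members tested 3 rose, Col15a1 with a log2 fold change of 3.09 ± 0.35 (SE, adjusted p = 0.000726), Col4a6 with 0.39 ± 0.17 (SE, adjusted p = 0.0946) and Col4a4 with 2.88 ± 0.52 (SE, adjusted p = 0.00409). Col4a4 lies outside the rule for named genes and was named after its value was seen. The Col4a6 call was lost without NPC replicate 2 or either day 2 control library. Col18a1 fell, from 8642 and 8652 counts to 1359 and 1038, a log2 fold change of -2.86 ± 0.13 (SE, adjusted p = 4.86e-05). Fibroblast markers summed to 7654 and 9722 in NPCs and 7265 and 5073 at day 2, with 3 of 11 markers tested called higher and 4 lower, and all 4 Y-linked genes were called higher at day 2. The part of feeder RNA in these increases was not tested.

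From day 2 to day 5, most collagens fell. Of 41 members tested 36 fell and 3 rose, beside 35.6% and 34.9% of all genes, and the median log2 fold change was -3.20 over the members and 0.00 over all genes. All 11 fibrillar members fell. Col3a1 fell from 24921 and 15315 counts to 191 and 226, a log2 fold change of -6.55 ± 0.21 (SE, adjusted p = 2.70e-06). Col1a1 was at 439 and 321 and Col1a2 at 594 and 417 at day 5, log2 fold changes of -4.84 and -4.95. Col2a1, the collagen of cartilage that is also made in early neural tissue, fell from 10448 and 10370.0 to 196 and 237 counts, a log2 fold change of -5.59. These abundant fibrillar chains had no day 5 value near any day 2 value. Col5a2 was the fibrillar member that fell least, with 3168 and 3765 counts at day 5 and a log2 fold change of -1.49 ± 0.10 (SE, adjusted p = 2.28e-05). Of 7 basement membrane members tested 6 fell, among them the pair that forms the common type IV network, Col4a1 with a log2 fold change of -1.75 and Col4a2 with -1.83. The 3 members that rose were Col18a1 (2972 and 3694 counts at day 5, log2 fold change 1.48 ± 0.15 SE, adjusted p = 0.000133), the hemidesmosome collagen Col17a1 (log2 fold change 0.78) and the type VI chain Col6a5, which stood at 282 and 204 counts at day 2 and 1442 and 1885 at day 5, a log2 fold change of 2.77 ± 0.19 (SE, adjusted p = 2.25e-05). Col6a5 was the 1 member with its highest mean at day 5. The Col17a1 call was lost without day 2 control replicate 2 or day 5 control replicate 1. The SSEA1 sort was made at day 5 and not at day 2, and the Y-linked sum was 5.89 and 2.66 at day 5, with 9 of 10 fibroblast markers tested called lower, so the day cannot be told apart from the sort in this comparison.

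Between day 5 and day 7 X-GFP negative control cells, both sorted as SSEA1 positive, 13 of 33 members tested rose and 7 fell (34.2% and 29.5% of all genes). The type IV pair rose: Col4a1 from 3568 and 3751 to 8384 and 7719.7 counts, a log2 fold change of 1.14 ± 0.0685 (SE, adjusted p = 3.62e-05), and Col4a2 from 1362 and 1542 to 3611 and 3298 counts, a log2 fold change of 1.25 ± 0.0882 (SE, adjusted p = 5.14e-05). The type I and III chains fell further, with log2 fold changes of -3.26 for Col3a1, -1.40 for Col1a1 and -0.75 for Col1a2. The Col1a2 call was lost without X-GFP negative control replicate 2. The type IV pair and the type I and III chains thus moved in opposite directions between these populations.

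Within day 7 control cells, X-GFP high cells, in which the silenced X is active again, were compared with X-GFP negative cells, and more collagens fell than rose. Of 34 members tested 20 fell and 9 rose, beside 39.3% and 34.7% of all genes, with a median log2 fold change of -0.85 over the members and -0.04 over all genes. The X-linked pair Col4a5 and Col4a6, which forms a restricted type IV network in epithelial basement membranes, fell most among the basement membrane members. Col4a5 was at 584 and 456 counts in X-GFP negative and 128 and 91.8 in X-GFP high libraries, a log2 fold change of -2.24 ± 0.17 (SE, adjusted p = 6.64e-07). Col4a6 was at 293 and 220.0 in X-GFP negative and 42.3 and 27.8 in X-GFP high libraries, a log2 fold change of -2.85 ± 0.23 (SE, adjusted p = 8.43e-07). Both genes lie on the X chromosome, and their levels were lower in the cells with the active X-GFP reporter. The minor fibrillar chain Col5a3 went the other way, from 21.9 and 26.8 to 178 and 233 counts, a log2 fold change of 3.02 ± 0.21 (SE, adjusted p = 3.47e-07). Col18a1 rose too, with a log2 fold change of 0.65 ± 0.0634 (SE, adjusted p = 3.88e-06). Markers of other cell types differed between the same populations. The fibroblast list summed to 4743 and 4291 in X-GFP negative and 2551 and 2053 in X-GFP high libraries, with 4 of 6 markers tested called lower and 2 higher. The epidermal list went from 19473 and 18243 to 5582 and 4544 with all 4 markers tested called lower, and the extraembryonic endoderm list from 658 and 641 to 469 and 449 with 3 of 5 called lower and 1 higher. Neural precursor markers summed to 4838 and 4757 and 1635 and 1575, with 2 of 3 called lower, and all 6 pluripotency markers were called higher. The part of these lists in the collagen differences was not tested.

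Most collagens differed between the end points of the course. In ESCs 33 of 39 members tested were lower than in NPCs and 5 were higher, where 43.4% and 42.2% of all genes were, and the median log2 fold change was -3.90 over the members and -0.03 over all genes. Col3a1, at 20145 and 30501 counts in NPCs, had 0 reads in both ESC libraries. Against a floor of 3 reads per library it was at least 8728-fold lower. Col4a5 was at 2013 and 1918 counts in NPCs and 4.91 and 1.9 in ESCs, a log2 fold change of -8.89 ± 0.36 (SE, adjusted p = 6.50e-06) whose size depends on the pseudocount at so few reads. Col4a1 kept a higher level, 2099 and 2123 counts against 8738 and 13481 in NPCs, a log2 fold change of -2.36 ± 0.19 (SE, adjusted p = 7.79e-05). Col18a1 differed little, with 7851 and 7542 counts in ESCs and 8642 and 8652 in NPCs, and its log2 fold change of -0.17 ± 0.0559 (SE, adjusted p = 0.0315) passed the test. That call was lost without either ESC library. The 5 members higher in ESCs were Col5a3 (545 and 499 counts, log2 fold change 3.73 ± 0.19 SE, adjusted p = 1.38e-05), Col17a1 (log2 fold change 2.5), Col6a5 (2.33) and the type IX chains Col9a2 (1.43) and Col9a3 (0.94), which coat type II fibrils in cartilage. The Col9a3 call was lost without ESC replicate 2. Of all 44 members, 25 had their lowest mean in ESCs, 20 had their highest in day 2 control cells and 11 in NPCs.

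**Figure D2:**
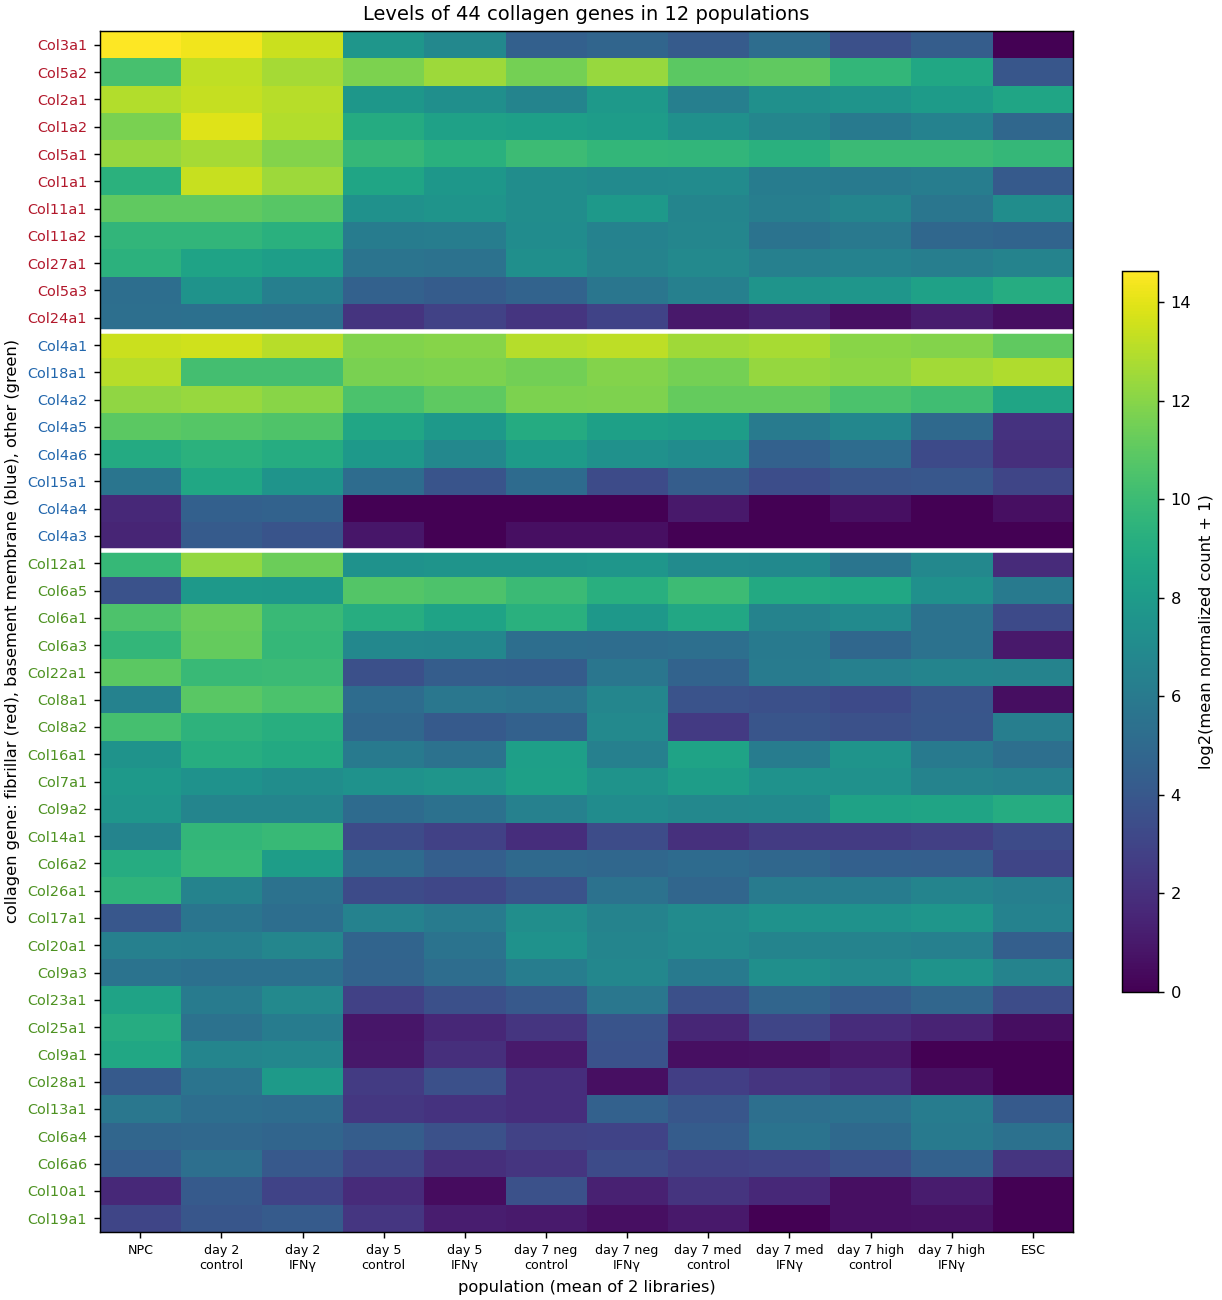
Mean level of each of the 44 collagens in the 12 populations, as log2(mean normalized count + 1) on a colour scale from dark blue (low) to yellow (high), with genes in rows by class and populations in columns. Most fibrillar rows are brightest in the NPC and day 2 columns, while Col4a1, Col4a2 and Col18a1 keep high levels in every reprogramming population.

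At day 2, cells that received IFNγ had lower collagen expression than control cells. Of the 44 members 12 fell and 2 rose, 27.3% and 4.55% of the members, where 3.45% of all genes tested fell and 5.03% rose. All 11 fibrillar members had a negative log2 fold change, and 6 of them passed the test. The median log2 fold change was -0.61 over the fibrillar members, -0.28 over all 44 and 0.01 over all genes. At an unadjusted p under 0.05, 20 members were lower and 2 higher, where 9.72% of all genes were lower and 11.1% higher.

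The type VI chains Col6a1, Col6a2 and Col6a3, which assemble with each other into the beaded filaments around cells, fell most. Col6a2 was at 997 and 774 counts in the control libraries and 256 and 299.8 in the IFNγ libraries, a log2 fold change of -1.66 ± 0.15 (SE, adjusted p = 0.00183). Col6a3 was at 2781 and 1850.1 counts in control and 827 and 852 in IFNγ libraries, a log2 fold change of -1.43 ± 0.17 (SE, adjusted p = 0.00749). Col6a1 was at 2819.8 and 2106 counts in control and 963 and 989 in IFNγ libraries, a log2 fold change of -1.32 ± 0.13 (SE, adjusted p = 0.00287). In each of the 3 chains both IFNγ libraries lay far below both controls, and the call held in all 11 alternative analyses.

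Type I collagen fell in both chains. Col1a1 was at 12559 and 9244 counts in the control libraries and 5763 and 5645 in the IFNγ libraries, a log2 fold change of -0.92 ± 0.13 (SE, adjusted p = 0.014), and Col1a2 was at 18284 and 12936 counts in control and 8037 and 7656 in IFNγ libraries, a log2 fold change of -0.97 ± 0.15 (SE, adjusted p = 0.0175). The control libraries differed more from each other than the IFNγ libraries did, and the groups did not overlap. All 3 chains of type V, which start and limit the width of type I fibrils, fell as well, with log2 fold changes of -0.73 ± 0.12 (SE, adjusted p = 0.0246) for Col5a1, -0.61 ± 0.0747 (SE, adjusted p = 0.00743) for Col5a2 and -1.23 ± 0.22 (SE, adjusted p = 0.0314) for Col5a3. Col2a1 changed little, from 10448 and 10370.0 to 9104 and 8162 counts, but passed the test with a log2 fold change of -0.27 ± 0.0645 (SE, adjusted p = 0.0734). Col3a1 did not pass it, with 24921 and 15315 counts in control and 13465 and 8841 in IFNγ libraries and a log2 fold change of -0.84 ± 0.26 (SE, adjusted p = 0.141). The fibril chains Col11a1, Col11a2 and Col27a1 had log2 fold changes of -0.27, -0.31 and -0.28 and did not pass either.

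Of the 8 basement membrane members 2 fell. Col15a1 was at 343 and 494 counts in control and 146 and 234 in IFNγ libraries, a log2 fold change of -1.15 ± 0.26 (SE, adjusted p = 0.0659). Col4a1 was at 13657 and 11049 counts in control and 9636 and 7531 in IFNγ libraries, a log2 fold change of -0.53 ± 0.14 (SE, adjusted p = 0.0946), just inside the threshold of 0.1. Col18a1, Col4a2, Col4a5 and Col4a6 had log2 fold changes of 0.06, -0.30, -0.18 and -0.27 and did not pass. The remaining decrease was that of Col12a1, which sits on the surface of type I fibrils, with a log2 fold change of -0.93 ± 0.16 (SE, adjusted p = 0.0248). The rule for named genes does not name it at day 2, and it was singled out after its value was seen.

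Both increases were in collagens of low level. Col28a1, a chain with von Willebrand factor A domains that in adults is found around nerves, was at 45.8 and 52.6 counts in the control libraries and 219 and 273 in the IFNγ libraries, a log2 fold change of 2.29 ± 0.19 (SE, adjusted p = 0.00147) that held in all 11 alternatives. The transmembrane collagen Col23a1 was at 65.2 and 69.5 counts in control and 121 and 112 in IFNγ libraries, a log2 fold change of 0.78 ± 0.18 (SE, adjusted p = 0.0716), called in 4 of 11 alternatives. Of the 44 members, Col28a1 had the largest change of either sign at day 2.

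**Figure D3:**
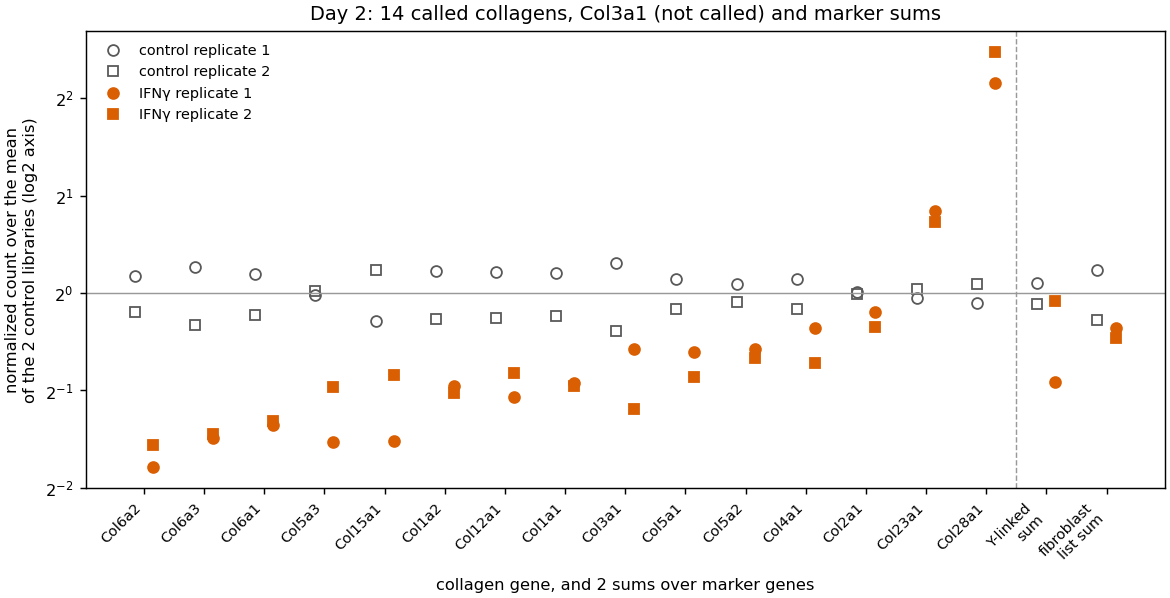
Normalized count of the 14 members called at day 2, of Col3a1 and of 2 marker sums in each of the 4 day 2 libraries, divided by the mean of the 2 control libraries (log2 axis), with 1 point per library. Both IFNγ points lie below both control points for the 12 members that fell and above them for Col28a1 and Col23a1, while the Y-linked sum of IFNγ replicate 2 lies among the controls.

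The Y-linked sum was lowest in IFNγ replicate 1 and was 223, within the control range, in IFNγ replicate 2, where Col6a2 was at 299.8 and Col1a1 at 5645 counts. None of the 4 Y-linked genes was called. The fibroblast list of 12 markers summed to 7265 and 5073 in control and 4823 and 4493 in IFNγ libraries, and Thy1, Postn and Dpt of the 10 tested were called lower. The number of members called changed when 1 library was left out, and such a fit leaves 1 library in a group. Of the 14 calls 9 held whichever library was left out. Col15a1 and Col5a3 were lost without either control library, Col4a1 and Col2a1 without either control library or IFNγ replicate 2, and Col23a1 without any of the 4. The part of feeder or fibroblast RNA in these decreases was not tested.

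The promoters of 2 members described at day 2 are shown, the fibrillar gene with the highest counts in the control libraries (Col3a1, which did not pass the test) and a type VI gene that fell strongly (Col6a3). The 250 bases upstream of the RefSeq start (GRCm38.p6) are given 5′ to 3′ on the strand of the gene, with a match to the TATA box letters TATAAA in capitals.
Col3a1, chr1:45311288-45311537, plus strand: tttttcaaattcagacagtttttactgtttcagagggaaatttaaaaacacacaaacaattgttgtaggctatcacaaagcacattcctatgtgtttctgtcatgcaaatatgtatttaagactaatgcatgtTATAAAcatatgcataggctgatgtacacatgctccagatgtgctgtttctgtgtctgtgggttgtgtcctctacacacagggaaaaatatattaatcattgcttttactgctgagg
Col6a3, chr1:90843972-90844221, minus strand: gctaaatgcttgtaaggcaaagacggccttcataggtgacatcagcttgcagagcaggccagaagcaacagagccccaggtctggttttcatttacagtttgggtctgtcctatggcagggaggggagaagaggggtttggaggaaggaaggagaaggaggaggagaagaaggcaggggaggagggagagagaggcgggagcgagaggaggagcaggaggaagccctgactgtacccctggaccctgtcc
The Col3a1 match begins 117 bases before the start, and the Col6a3 window holds neither TATAAA nor CCAAT, the letters of the CCAAT box. Among the 35 members with a RefSeq window, searched on both strands, 5 held TATAAA and 12 held CCAAT, against 13% and 34.5% of 27025 gene windows. A match shows letters and not a bound site.

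At day 5, the last day of IFNγ, 2 of the 31 members tested fell and 0 rose, where 0.535% of all genes fell and 1.65% rose. At an unadjusted p under 0.05, limma found 8 lower and 3 higher (8.79% and 9.97% of all genes). At an adjusted p under 0.1, edgeR called 2 lower and 0 higher and DESeq2 6 lower and 1 higher. The shares of all genes called by edgeR and DESeq2 are not given here. Col4a5 was at 426 and 366 counts in the control libraries and 250.1 and 229 in the IFNγ libraries, a log2 fold change of -0.72 ± 0.15 (SE, adjusted p = 0.0932). Col6a1 was at 555 and 558 counts in control and 333 and 372 in IFNγ libraries, a log2 fold change of -0.66 ± 0.12 (SE, adjusted p = 0.0712). Both were below both controls in each IFNγ library. No fibrillar member passed: Col1a1 had a log2 fold change of -0.84 ± 0.27 (SE, adjusted p = 0.196), Col3a1 of -0.89 ± 0.20 (SE, adjusted p = 0.11) and Col5a2, the most abundant fibrillar member at this day, of 0.72 ± 0.21 (SE, adjusted p = 0.169). At an unadjusted p under 0.05 in limma, 4 of the 10 fibrillar members tested were lower and 1 higher. Of the 10, 7 had a negative and 3 a positive log2 fold change. The fibrillar sum per kilobase, however, was 624 and 647 in control and 687 and 921 in IFNγ libraries. The study used DESeq2 and reports reduced focal adhesion genes at day 2 and day 5, naming Col1a1, Col3a1 and Col5a1. Here Col3a1 passed the limma test on neither day. Its DESeq2 result is not given here, so this is no test of the study's call. Col5a1 was at 885 and 813 counts in control and 654 and 607 in IFNγ libraries of day 5 and did not pass the limma test. Neither the Col4a5 nor the Col6a1 call held without control replicate 1, without control replicate 2 or without IFNγ replicate 2. Each of these fits leaves 1 library in a group.

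A test of whether the IFNγ effect differed between day 5 and day 2 called 1 of 41 members higher and 0 lower (0.202% and 0.474% of all genes). This was Col6a3, whose effect was -1.43 at day 2 and -0.02 at day 5. In the same test edgeR called 1 other member and DESeq2 6, and the shares of all genes they called are not given here. The Col6a3 difference was 1.41 ± 0.27 (SE, adjusted p = 0.0837) on the log2 scale, called in 6 of 15 alternatives. It was lost without control replicate 1 or either IFNγ library of day 2, and without either control library or IFNγ replicate 2 of day 5. For the type I chains the difference was 0.08 ± 0.34 (SE, adjusted p = 0.958) for Col1a1 and 0.39 ± 0.28 (SE, adjusted p = 0.695) for Col1a2, which did not pass. At an unadjusted p under 0.05, 9 members had a higher and 1 a lower effect at day 5, beside 4.74% and 4.98% of all genes.

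At day 7, after IFNγ had been withdrawn, collagens were called in both directions in each of the 3 populations. In X-GFP negative cells 14 of 33 members tested rose and 12 fell, against 31.1% and 30.8% of all genes. In X-GFP medium cells 13 of 33 rose and 13 fell, against 33.3% and 29.6%. In X-GFP high cells 8 of 35 rose and 10 fell, against 18.1% and 20.4%. As shares of the members tested these were 42.4% and 36.4%, 39.4% and 39.4%, and 22.9% and 28.6%. Each lay above the share of all genes called in the same direction, and this excess was not tested. With libraries rescaled to the same total, the higher share of all calls in X-GFP negative cells went from 50.3% to 66.3%, the median of all genes moved by 0.16 on the log2 scale, and the member counts were 15 and 12.

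**Figure D4:**
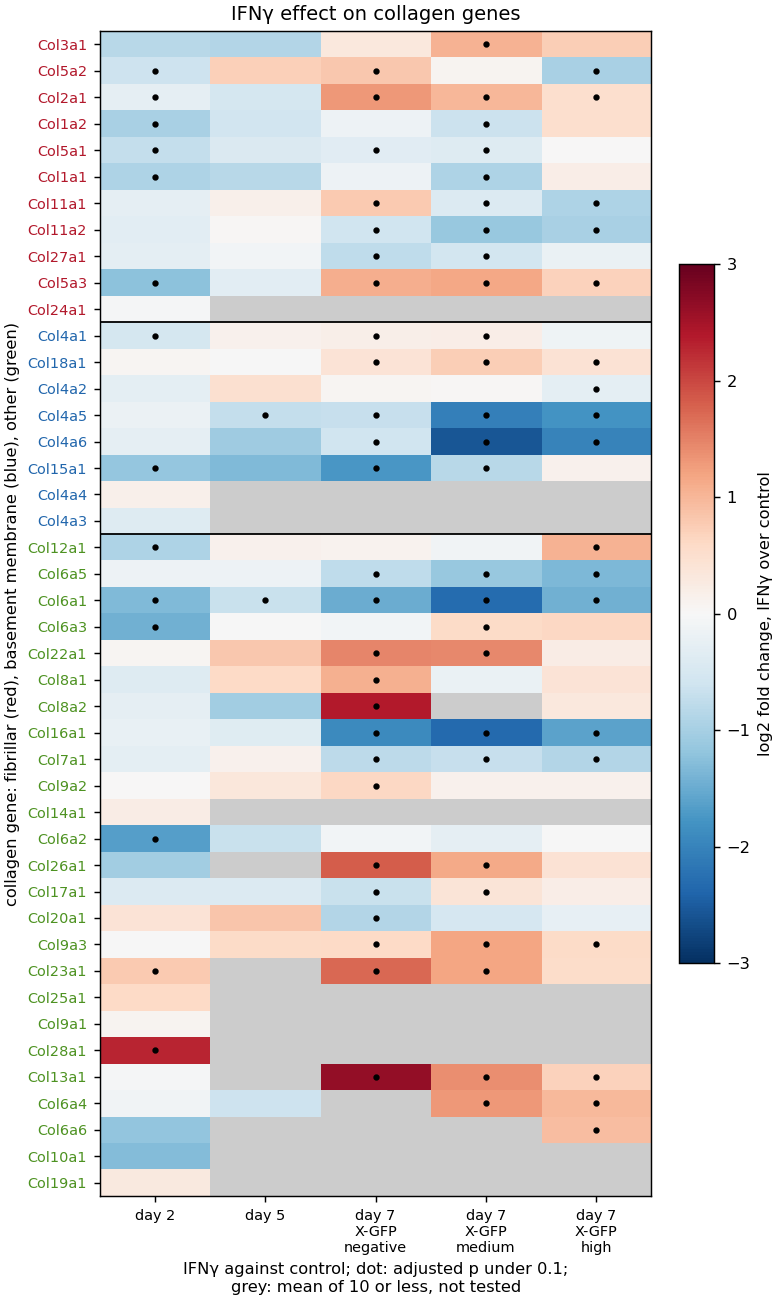
Log2 fold change of IFNγ against control as a colour scale from blue (lower with IFNγ) to red (higher) for each collagen in the 5 population pairs, with genes in rows by class, a dot on members called at an adjusted p under 0.1 and grey where the mean was 10 or less. The day 2 column shows 12 decreases and 2 increases with a dot, and the day 7 columns show both signs.

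Of the 32 members tested in all 3 day 7 populations, 7 were called lower with IFNγ in each, where 16.9% of the genes tested in all 3 were. They were the X-linked pair Col4a5 and Col4a6, the type VI chains Col6a1 and Col6a5, the fibril-associated Col16a1, the minor fibrillar chain Col11a2 and Col7a1, which makes the anchoring fibrils of skin. Col6a1 was at 597 and 650.2 counts in X-GFP negative control and 199 and 244 in IFNγ libraries, a log2 fold change of -1.49 ± 0.13 (SE, adjusted p = 1.86e-05). In X-GFP medium cells it was at 379.5 and 487 counts in control and 63.8 and 117 in IFNγ libraries, a log2 fold change of -2.30 ± 0.25 (SE, adjusted p = 3.82e-05), and in X-GFP high cells at 125 and 126 counts in control and 43.4 and 47.4 in IFNγ libraries, a log2 fold change of -1.45 ± 0.20 (SE, adjusted p = 0.000312). Col6a1 was thus called lower with IFNγ in all 5 population pairs. Col16a1 had log2 fold changes of -1.91 ± 0.17 (SE, adjusted p = 2.22e-05), -2.33 ± 0.18 (SE, adjusted p = 4.24e-06) and -1.60 ± 0.18 (SE, adjusted p = 6.62e-05) in the same order, from means of 309, 364 and 189 counts in the controls. It was not called at day 2 or day 5, where its log2 fold changes were -0.23 and -0.37. Col6a5 had log2 fold changes of -0.77, -1.13 and -1.35, with 431 and 394 counts in X-GFP high control and 144 and 180.3 in IFNγ libraries.

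The X-linked type IV pair was lower with IFNγ in every day 7 population. Col4a5 was at 584 and 456 counts in X-GFP negative control and 321 and 321 in IFNγ libraries, at 262 and 295 counts in control and 54.9 and 79.5 in IFNγ libraries of medium cells and at 128 and 91.8 counts in control and 35.4 and 26.6 in IFNγ libraries of high cells. Its log2 fold changes were -0.68 ± 0.13 (SE, adjusted p = 0.00184), -2.06 ± 0.20 (SE, adjusted p = 1.67e-05) and -1.79 ± 0.26 (SE, adjusted p = 0.000352). Col4a6 had log2 fold changes of -0.60 ± 0.16 (SE, adjusted p = 0.0105), -2.57 ± 0.28 (SE, adjusted p = 3.70e-05) and -2.01 ± 0.45 (SE, adjusted p = 0.00619). It was at 16.8 and 28.2 counts in medium and 4.57 and 12.7 in high IFNγ libraries. The size of its change there depends on the pseudocount. The order of the control values, falling from X-GFP negative to medium to high cells, held in the IFNγ libraries of both genes. The autosomal pair showed other values: Col4a1 had log2 fold changes of 0.17 ± 0.0684 (SE, adjusted p = 0.0644), 0.19 ± 0.0605 (SE, adjusted p = 0.0216) and -0.12 ± 0.0747 (SE, adjusted p = 0.247), of which the first 2 passed, and Col4a2 of 0.05, 0.03 and -0.30 ± 0.0815 (SE, adjusted p = 0.0151), of which the last passed as a decrease. The share of transcripts from the Mus musculus X is not given for these genes, since the X-linked table that carries it lists neither.

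Another 5 members were called higher with IFNγ in each day 7 population: Col18a1, Col2a1, Col5a3, Col9a3 and the transmembrane collagen Col13a1, where 12.3% of the genes tested in all 3 populations were. Col18a1 was at 2809 and 3018 counts in X-GFP negative control and 4132 and 3616 in IFNγ libraries, at 2979.7 and 3065 counts in control and 5327 and 4711 in IFNγ libraries of medium cells and at 4453 and 4719 counts in control and 6382 and 5944 in IFNγ libraries of high cells. Its log2 fold changes were 0.41 ± 0.0786 (SE, adjusted p = 0.00205), 0.73 ± 0.0696 (SE, adjusted p = 1.73e-05) and 0.43 ± 0.0698 (SE, adjusted p = 0.000824). Col2a1 had log2 fold changes of 1.31, 1.00 and 0.50, although its day 7 levels, 219 and 251 counts in X-GFP negative IFNγ libraries, stayed far under those of day 2. Col5a3 had log2 fold changes of 1.08, 1.17 and 0.70, and Col9a3 of 0.60, 1.18 and 0.56. Col13a1 had only 2 and 3 reads in the X-GFP negative control libraries, against 18 and 25 in the IFNγ libraries. Col18a1 had the highest counts of the 5 in each population, and no other group mean of these members at day 7 was above the 332 counts of Col5a3 in X-GFP high IFNγ libraries.

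Other members passed in single populations. In X-GFP negative cells the short chain pair Col8a1 and Col8a2, which forms the hexagonal lattice of the corneal basement membrane, rose, with log2 fold changes of 1.08 ± 0.26 (SE, adjusted p = 0.00729) and 2.39 ± 0.27 (SE, adjusted p = 9.06e-05). There Col9a2 rose with a log2 fold change of 0.63, and Col20a1 fell with -0.87 ± 0.28 (SE, adjusted p = 0.0249). Col12a1 rose in X-GFP high cells, with a log2 fold change of 1.05 ± 0.33 (SE, adjusted p = 0.0311). In both directions 3 members were called: Col17a1 (-0.67 in negative and 0.38 in medium cells), Col11a1 (0.78 in negative, -0.41 in medium and -0.92 in high cells) and Col5a2 (0.82 in negative and -0.96 in high cells). Type I and III chains were at low levels by then, and in X-GFP medium cells Col1a1 and Col1a2 fell, with log2 fold changes of -0.93 ± 0.21 (SE, adjusted p = 0.00354) and -0.64 ± 0.21 (SE, adjusted p = 0.0253). Col3a1 rose there with a log2 fold change of 1.03 ± 0.38 (SE, adjusted p = 0.0401), from 22.7 and 12.4 counts. In negative and medium cells the log2 fold changes were -0.35 and -0.38 for Col5a1, -1.74 and -0.84 for Col15a1 and -0.76 and -0.54 for Col27a1, all past the threshold. Col7a1 and Col13a1 fall outside the rule for named genes and were singled out after their values were seen.

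The interaction test asked which IFNγ effects differed between X-GFP high and X-GFP negative cells. It called 3 of 35 members higher and 13 lower in X-GFP high cells, beside 9.43% and 13.3% of all genes, and 2 and 13 with libraries rescaled to the same total, where the higher share of all calls went from 41.4% to 13.9%. The effect on Col5a2 changed sign. Col5a2 was at 3215 and 2887 counts in X-GFP negative control and 4988 and 5784 in IFNγ libraries, and at 926 and 716 counts in control and 367 and 475 in IFNγ libraries of high cells. The effect was an increase in the first population and a decrease in the second, and the difference was -1.78 ± 0.20 (SE, adjusted p = 0.000458). Col11a1 differed by -1.70 ± 0.27 (SE, adjusted p = 0.00276) in the same way. The decrease of the X-linked pair was larger in X-GFP high cells. The differences were -1.10 ± 0.28 (SE, adjusted p = 0.0246) for Col4a5 and -1.42 ± 0.52 (SE, adjusted p = 0.0899) for Col4a6. Col4a6 was at only 4.57 and 12.7 counts in the X-GFP high IFNγ libraries. Col15a1 differed by 1.87 ± 0.51 (SE, adjusted p = 0.0315), from means of 34.0 counts in X-GFP negative and 13.9 in X-GFP high control cells. Leaving out X-GFP high control replicate 2 left 8 members called, X-GFP high control replicate 1 left 9 and X-GFP negative control replicate 1 left 10. Of the 16 calls 5 held whichever library was left out, and Col4a6 was lost without any of 7 of the 8.

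Markers of other cell types moved with IFNγ at day 7. The fibroblast list summed to 4743 and 4291 in X-GFP negative control and 728 and 816 in IFNγ libraries, to 5434 and 4941 in control and 543 and 596 in IFNγ libraries of medium cells and to 2551 and 2053 in control and 451 and 563 in IFNγ libraries of high cells. In negative cells 2 of 6 fibroblast markers tested were called higher and 2 lower, in medium cells 1 and 3 of 6, and in high cells 1 and 2 of 5. Most of the sum was Dcn, with 4299.7 and 3801 counts in X-GFP negative control and 219 and 287 in IFNγ libraries. The extraembryonic endoderm list, for a lineage that makes large amounts of type IV collagen, summed to 658 and 641 in control and 1339 and 1441 in IFNγ libraries of X-GFP negative cells, with 5 of 6 genes called higher. It was 591 and 570.0 in control and 751 and 813 in IFNγ libraries of medium cells, with 4 called higher and 1 lower, and 469 and 449 in control and 418 and 376 in IFNγ libraries of high cells, with 2 called higher and 2 lower. The neural precursor list summed to 4838 and 4757 in control and 5016 and 5218 in IFNγ libraries of negative cells, with 2 of 5 markers tested called higher and 0 lower. It went from 2986 and 3237 to 1552 and 1857 in medium and from 1635 and 1575 to 716 and 745 in high cells, with 2 of 3 called lower in each. Of 4 endothelial markers tested 3 were called lower in negative cells, 1 in each direction in medium cells and 1 lower in high cells, and every epidermal marker tested was called lower in each population (4, 4 and 3 genes). Of 6 pluripotency markers 5, 6 and 4 were called higher in negative, medium and high cells. The part of these lists in the collagen values was not tested. At day 7 without X-GFP high control replicate 1, 11 members were called in X-GFP high cells in place of 18, and 20 of 26, 17 of 26 and 10 of 18 calls held whichever library was left out in negative, medium and high cells. In X-GFP negative cells Col11a2, Col4a6 and Col20a1 were lost without control replicate 1, Col4a1 and Col9a3 without control replicate 2 or IFNγ replicate 1, and Col9a2 without any library but IFNγ replicate 2. In X-GFP medium cells Col4a1 was lost without either control library, Col1a2 and Col27a1 without control replicate 1, Col3a1 without control replicate 2 or IFNγ replicate 2, and Col15a1, Col11a1 and Col17a1 without any library but IFNγ replicate 2. In X-GFP high cells Col4a2, Col11a1, Col11a2 and Col2a1 were lost without control replicate 1, Col12a1 without control replicate 2 or IFNγ replicate 1, Col9a3 without any library but IFNγ replicate 2 and Col13a1 without any but IFNγ replicate 1.

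Partner chains of 1 collagen did not keep a fixed ratio. The ratio of Col6a1 to Col6a2, per kilobase of merged exons, was 5.11 and 5.5 in the NPC libraries and 5.38 and 5.17 in the day 2 control libraries. It was 27.8 and 36.2 at day 5 and 34.5 and 44.3 in day 7 X-GFP negative control cells, where Col6a2 was down to 32.9 and 27.9 counts. With IFNγ it was 13 and 16.8 in day 7 X-GFP negative, 4.51 and 7.6 in medium and 3.14 and 6.0 in high cells, against 19.7 and 28.9 in the medium and 16.4 and 8.63 in the high controls. In each day 7 population the IFNγ libraries lay below the control libraries. Col1a1 to Col1a2, which assemble as 2 chains to 1, was 0.412 and 0.347 in NPCs, 1.3 and 1.35 at day 2 and 1.36 and 1.4 at day 2 with IFNγ. Both type I chains fell together with IFNγ at day 2, so their ratio moved little. Col4a1 to Col4a2 was 2.11 and 2.1 in NPCs and 4.7 and 4.95 in ESCs. These 2 genes lie head to head on chromosome 8 with starts 21 bases apart, so that the genes overlap, and Col4a5 and Col4a6 lie head to head on the X chromosome, 1309 bases apart. Col4a5 to Col4a6 was 4.13 and 5.45 in NPCs and 3.7 and 2.79 at day 2. The size of a ratio depends on the length used for each gene, and its course between populations does not.

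**Figure D5:**
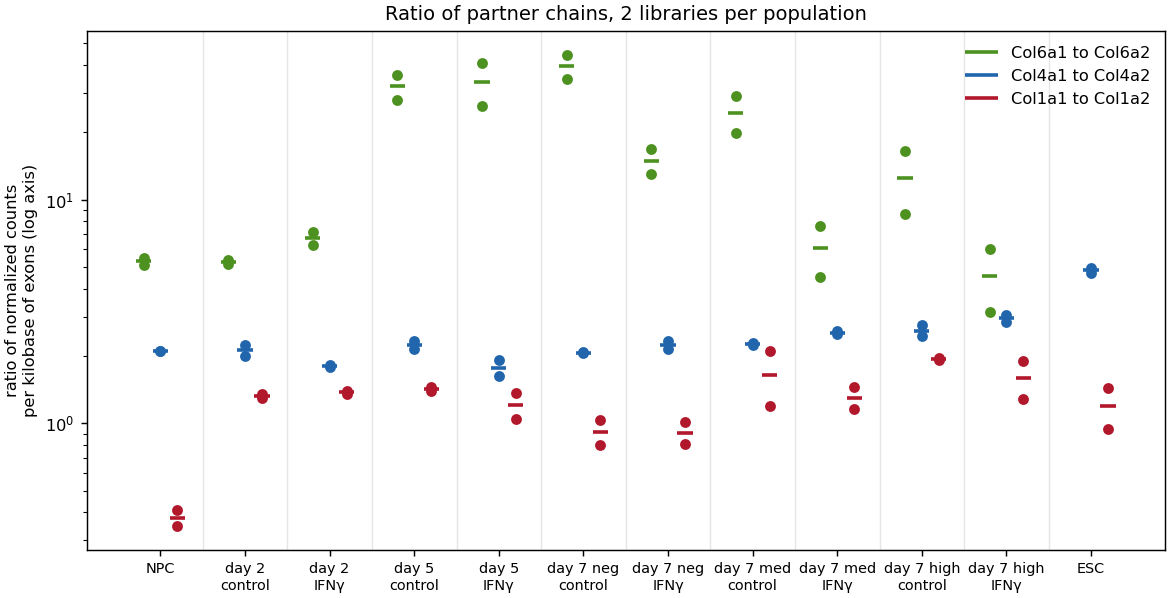
Ratio of the levels of partner chains (normalized counts per kilobase of merged exons, log axis) in each library of the 12 populations, with 1 point per library. The ratio of Col6a1 to Col6a2 is highest at day 5 and in the day 7 X-GFP negative controls, and ESCs are left out for this pair because few reads remain there.

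Collagen chains need a set of enzymes and helpers, and 46 such genes were followed. Prolyl and lysyl hydroxylases, which need ascorbic acid, modify the chains, chaperones such as Serpinh1 fold them, and proteases trim them before Lox enzymes cross-link the fibrils. At day 2, 1 of the 44 tested rose with IFNγ and 6 fell, beside 5.03% and 3.45% of all genes. The largest decreases were those of the collagen receptor chain Itga11, from 179 and 155 to 53.3 and 95 counts, a log2 fold change of -1.22 ± 0.29 (SE, adjusted p = 0.0733) called in 6 of 11 alternatives, and of the collagen-cleaving protease Ctsk, with a log2 fold change of -1.05 ± 0.23 (SE, adjusted p = 0.0557) called in 6 of 11. At day 5, 1 of 38 rose and 2 fell, beside 1.65% and 0.535% of all genes: the cross-linking enzyme Loxl1 rose, with a log2 fold change of 1.14 ± 0.23 (SE, adjusted p = 0.0954), and the procollagen protease enhancer Pcolce2 and the chaperone Fkbp10 fell, with -0.66 and -0.47. The day 2 decreases thus spread over each of the 6 groups of helpers with 1 gene each.

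At day 7 the list held more decreases than increases in each population. In X-GFP negative cells 10 of 40 rose and 17 fell (31.1% and 30.8% of all genes), in X-GFP medium cells 11 of 39 rose and 19 fell (33.3% and 29.6%), and in X-GFP high cells 5 of 38 rose and 15 fell (18.1% and 20.4%). Of the 14, 14 and 13 hydroxylase and glycosylation genes tested, 7, 6 and 6 fell and 2, 4 and 2 rose. The prolyl hydroxylase subunit P4ha2 fell in X-GFP negative cells, with a log2 fold change of -1.19 ± 0.10 (SE, adjusted p = 1.81e-05), while P3h1, a prolyl 3-hydroxylase, rose with 0.84 there and 0.35 in X-GFP high cells. Fkbp14, a chaperone of type III and VI collagen, was at 915 and 1073 counts in X-GFP medium control and 216 and 291 in IFNγ libraries, a log2 fold change of -1.98 ± 0.14 (SE, adjusted p = 2.91e-06), and its log2 fold change in X-GFP high cells was -1.82, beside -1.65 for Fkbp10. Pcolce, which speeds the trimming of fibrillar procollagen, fell in negative and medium cells, with log2 fold changes of -1.25 ± 0.0773 (SE, adjusted p = 3.92e-06) and -1.64 ± 0.10 (SE, adjusted p = 1.22e-06). Among the receptors Itga1 rose in the same populations, with 2.17 ± 0.15 (SE, adjusted p = 7.19e-06) and 1.82 ± 0.19 (SE, adjusted p = 2.90e-05), and Ddr2 rose in medium and high cells, with 1.04 and 0.66.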

How the data were processed

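RNA-seq libraries (rRNA-depleted, stranded, paired-end) of 12 populations with 2 replicates were analysed. The deposited table holds normalized signal: the authors aligned reads to mm10 with variant positions masked, counted them per gene with HTSeq 0.6.1 and divided the counts by DESeq2 size factors. The strand setting and annotation release are not given in the sources used here, so genes that overlap on opposite strands may share reads (with protein-coding partners Col10a1, Col18a1, Col9a3, and Col4a1 with Col4a2, and other members with noncoding transcripts or pseudogenes). GENCODE vM21 (95.2% of gene IDs found) gave symbols and exon lengths. All values were whole multiples of 1 step per library (100%, tolerance 0.001), which gave back the reads used for edgeR 4.0.16 and DESeq2 1.42.0. A second table, of the share of transcripts from the Mus musculus X, lists none of the 44 members and was not used.

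Each pair of populations was compared with limma 3.58.1 (trend, two-sided, R 4.3.3) on log2(normalized count + 1), over genes with a mean above 10 in the fitted libraries, with Benjamini-Hochberg adjustment over all genes tested and a threshold of 0.1. Fold changes on this scale understate those of low genes. Differences between effects were tested as an interaction over 8 libraries. Sums and ratios are given as values without a test, since an exact permutation test of 2 libraries against 2 cannot go below p = 0.33. Named were the fibrillar and basement membrane members whose mean reached 100 in some population, and, for each IFNγ comparison, up to 3 other members and 2 genes of the pathway list with the largest change in each direction among those past the threshold, at that mean and without overlap, plus Col1a1, Col3a1, Col5a1, Col4a5 and Col4a6. Members and lists were chosen with earlier results of these data known. Alternatives were a pseudocount of 0.1, no filter, rescaling to 1 total, all 24 libraries in 1 fit, a replicate block, edgeR, DESeq2 and leaving out each library.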

Additional observations from a re-analysis of the deposited data

Results flagged for a closer look

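The IFNγ effect differed between populations, by the limma interaction term at an adjusted p under 0.1, for 17 results on collagens. Between day 5 and day 2 this was Col6a3, with an effect 1.41 higher on the log2 scale at day 5.

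Between X-GFP high and X-GFP negative cells of day 7, the effect was higher in X-GFP high cells for Col15a1 by 1.87, for Col17a1 by 0.86 and for Col5a1 by 0.37 on the log2 scale. It was lower in X-GFP high cells for the type IV chains, with differences of -0.29 for Col4a1, -0.36 for Col4a2, -1.1 for Col4a5 and -1.42 for Col4a6. Among fibrillar chains the differences were -1.7 for Col11a1, -0.81 for Col2a1 and -1.78 for Col5a2. In the remaining members they were -1.94 for Col13a1, -1.24 for Col22a1, -1.18 for Col23a1, -1.37 for Col26a1, -0.58 for Col6a5 and -2.08 for Col8a2. The Col13a1 value rests on 2 and 3 reads in the X-GFP negative control libraries. Col22a1 and Col26a1 fall outside the rule for named genes and are given here because the test called them. Groups of 2 libraries are too small to look for single libraries that stand apart.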

How the results depend on the processing

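No named gene called in a comparison changed sign under any alternative. Of 4113 values of named genes under the alternatives, 3783 kept their side of the threshold, 217 lost the call and 113 gained one. The counts of members called in the 5 comparisons along the course, in day 7 X-GFP negative and in X-GFP medium cells stayed within 1.5 times under each alternative. At day 2 the fit of all 24 libraries called 9 members in place of 14, and leaving out 1 library gave 9 to 16. At day 5, in place of 2, no filter gave 0 (11 at an unadjusted p under 0.05), the fit of all libraries 5, DESeq2 7 and leaving out 1 library 0 to 12. In day 7 X-GFP high cells, leaving out 1 library gave 11 to 19 in place of 18. For the change of effect from day 2 to day 5, in place of 1, no filter and the fit of all libraries gave 0 (11 and 7 at an unadjusted p under 0.05), rescaling 2, DESeq2 6 and leaving out 1 library 0 to 3. For the change between X-GFP populations the fit of all libraries gave 10 in place of 16, and leaving out 1 library 8 to 16. Rescaling moved the log2 ratio of class sums in X-GFP negative cells to 0.66 (fibrillar), 0.31 (basement membrane) and -0.32 (other), from 0.50, 0.16 and -0.47. With the longest transcript as length, the day 2 control ratios were 0.632 for Col1a1 to Col1a2, 2.33 for Col4a1 to Col4a2 and 3.32 for Col6a1 to Col6a2. The cause of the other shifts was not tested. The shares of all genes called under the alternatives are not given here, so shifts in these counts are not read as results about collagens alone.

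Replicate numbers are shared by all populations, but no source says that they mark a batch, and the deviations of same-numbered libraries correlated at 0.406 at day 2, 0.363 at day 5, 0.187, 0.107 and 0.0239 in the day 7 populations and -0.146 between day 2 and NPCs. With the replicate block 30 members were called at day 2, 13 at day 5 and 2 for the change between them. With crossed numbers, an alternative chosen after seeing the data, day 2 against NPCs gave 21 higher and 11 lower. The shares of all genes called with the block are not given, so these counts are not read as a result about collagens. Few reads limit the members under 10 counts, and with 2 libraries a missed call does not show that a member stayed the same.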
